A study of Homo sapiens with 18 samples.

Results

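Integrins are the main receptors by which epithelial cells hold on to the extracellular matrix, and the genes of 10 of their subunits were followed through the knockdown of SYK, a cytoplasmic tyrosine kinase, in lung cancer cells. The 10 genes were taken by name from the 58302 genes in the expression tables: the alpha subunits ITGA2, ITGA3, ITGA5, ITGA6 and ITGAV and the beta subunits ITGB1, ITGB4, ITGB5, ITGB6 and ITGB8. The knockdown cells carried an shRNA against SYK from a lentivirus (shSYK), and the controls were matching negative control cells (nc). A single shRNA sequence was used, so an effect of SYK loss and an effect of this shRNA sequence cannot be told apart. EBC-1 carries MET amplification, and PC-9 and HCC827 carry an EGFR exon 19 deletion. Each of the 6 groups held 3 RNA-seq libraries, 18 in all, with between 7920099 and 15729103 reads on genes per library.

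An integrin is a pair of an alpha and a beta subunit, which spans the membrane and links matrix proteins outside the cell to actin or keratin filaments inside. ITGB1 is the common partner of ITGA2, ITGA3, ITGA5 and ITGA6 and can also pair with ITGAV, whereas ITGB4 pairs with ITGA6 alone and anchors hemidesmosomes. ITGB5, ITGB6 and ITGB8 pair with ITGAV. Of these pairs, the ITGA2 receptor binds collagens, the ITGA3 and ITGA6 receptors bind laminins, the ITGA5 receptor binds fibronectin, and the ITGAV receptors bind vitronectin, fibronectin and latent TGF-beta, which ITGAV with ITGB6 or ITGB8 can activate. Integrin transcripts are often read as part of the epithelial or mesenchymal state of a carcinoma cell, the property that SYK was studied for here.

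The transcript of SYK was reduced in all shSYK libraries, which lay below the nc libraries of their cell line. Its mean was 52.3% of nc for EBC-1, 32.1% for PC-9 and 32.9% for HCC827. Its limma adjusted p was 0.000271, 0.00733 and 0.000197, and in PC-9 the call was lost without nc replicate 3 or without shSYK replicate 1. Values are FPKM, fragments scaled by the authors for gene length and for the size of the library. All 5 epithelial marker genes (EPCAM, CDH1, KRT8, KRT18 and KRT19) were above 3 reads in all libraries, while the leukocyte genes PTPRC and CD3E reached at most 14 and 3 reads and the fibroblast gene DCN at most 1 read. Other genes of those 2 lists were higher. The leukocyte gene ITGB2 had 81 to 811 reads and the fibroblast gene COL1A1 81 to 782. CD14 reached 33 and PDGFRB 48 reads. The endothelial gene PECAM1 reached 14.4 FPKM in PC-9, where the summed FPKM of the 3 endothelial markers was 15.0 to 17.0 in nc and 6.62 to 7.91 in shSYK libraries, and the part of this shift in the results was not tested. PC-9 nc replicate 1 stood apart from the other nc libraries of PC-9, and its chi-square over genes, divided by the degrees of freedom, was 38.66 and 14.31, against at most 12.18 for any other replicate pair, so the PC-9 responses of the members are given with and without it. In these bulk samples, fewer cells of a type and less RNA per cell cannot be told apart, and the labels do not say whether the 3 libraries of a group came from separate cultures, so the p-values measure the spread between libraries, which may be technical.

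The resting repertoire differed in order between the cell lines. ITGA3 was the most abundant alpha subunit in the nc cells of each line, at 184 ± 16.7 FPKM in EBC-1 (SD, n = 3), 121 ± 27.2 in PC-9 and 158 ± 2.99 in HCC827. In EBC-1 nc cells the order below ITGA3 was ITGB1 (78.7 FPKM), ITGB5 (54.0), ITGB4 (36.4), ITGA2 (33.7), ITGA6 (18.4), ITGAV (17.5), ITGB6 (5.35), ITGA5 (2.35) and ITGB8 (0.344). Only the neighbours ITGB4 and ITGA2, and ITGA6 and ITGAV, overlapped there. PC-9 nc cells were led by ITGB4 at 131 ± 22.6 FPKM, which overlapped ITGA3, followed by ITGB1 (70.8), ITGB5 (50.4) and ITGA6 (49.9), by ITGA2 (15.6), ITGB6 (11.9) and ITGA5 (11.1), and by ITGAV (4.20) and ITGB8 (0.568). Within each of those sets of 3 the neighbouring genes overlapped, so PC-9 had the hemidesmosome subunit ITGB4 at the top of its list and ITGAV near the bottom. HCC827 nc cells held ITGB1 at 147 ± 5.73 FPKM close to ITGA3, then ITGB4 (28.3), ITGA5 (22.1), ITGA6 (19.9), the overlapping neighbours ITGA2 (17.1), ITGB5 (16.1) and ITGAV (14.6), then ITGB6 (8.28) and ITGB8 (0.175). ITGA5, the fibronectin receptor subunit, thus ranked the ninth in EBC-1 and the fourth in HCC827. The 3 tables were normalized separately, so these levels are set side by side without a test. ITGB8 stayed at 0.141 to 0.806 FPKM (17 to 142 reads) in all 18 libraries, overlapped between nc and shSYK in each cell line, and was under the minimum mean of 1 FPKM for testing. The other 9 genes passed that minimum in each cell line, in all 6 libraries of which the mean was taken.

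**Figure D1:**
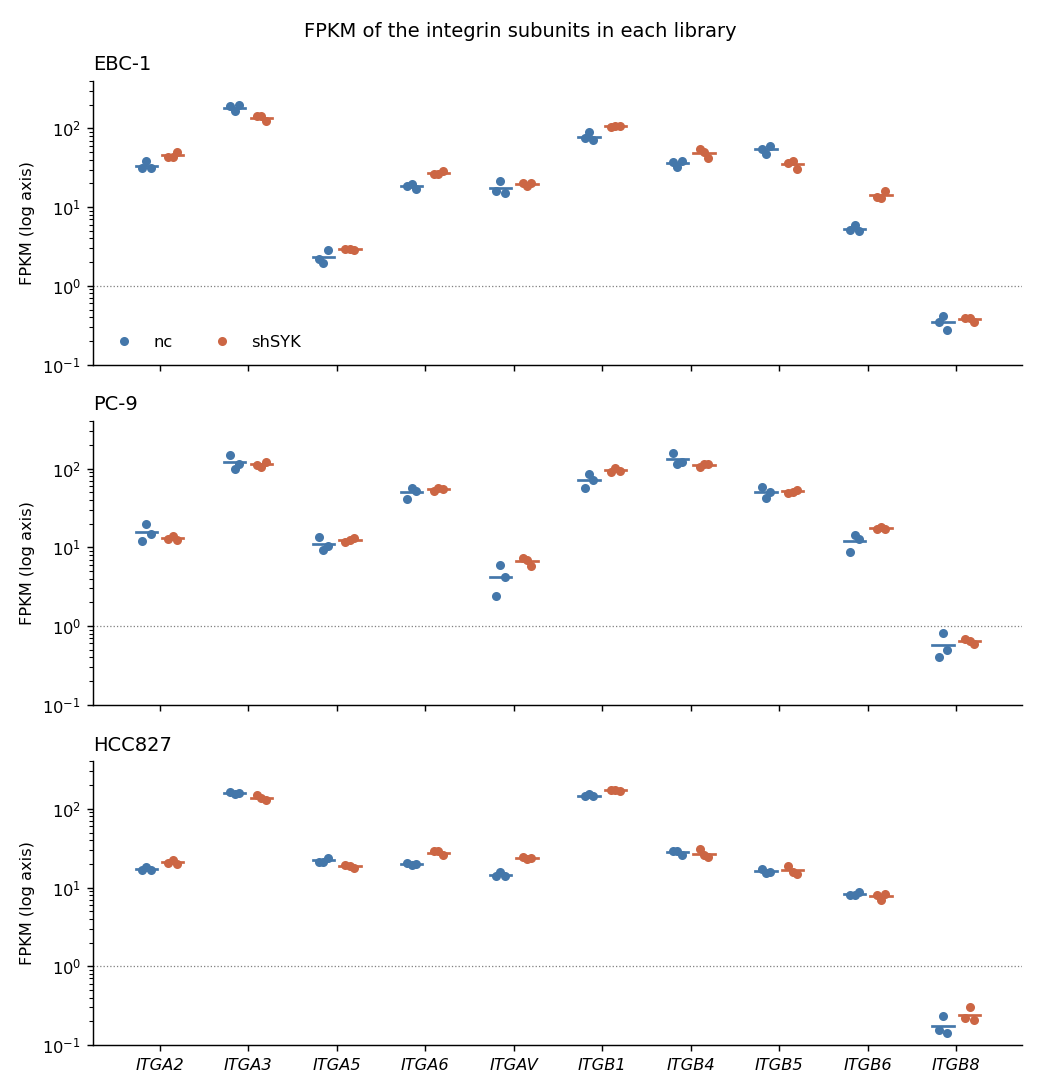
FPKM of the 10 integrin subunits on a log axis in the 3 nc (blue) and 3 shSYK (orange) libraries of each cell line. Points are libraries, short bars are group means, and the dotted line is 1 FPKM. ITGB6 in EBC-1 and ITGAV in HCC827 show the widest gaps between nc and shSYK, and ITGB8 lies under the line in each panel.

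The promoters of members that changed do not look alike, which is why a few of them are printed here. The study asks how SYK acts on the transcription factors Sp1 and FRA1, so the letters searched were GGGCGG, the GC box that Sp1 is known to bind, and TGANTCA, the AP-1 site that FRA1 binds with a JUN partner, on both strands. The RefSeq table of promoters (GRCh38.p14, from 250 bases before to 50 bases after each start) held 13 entries for 8 of the 10 genes, and ITGA3 and ITGB4 are named only. A GC box was found in 9 of the 13 entries and in 45.0% of all 35116 promoters in the table, and an AP-1 site in 1 of the 13 (ITGA5) and in 7.71% of all. The 250 bases before a start are shown 5′ to 3′ with GC boxes in capitals on either strand, for ITGB6 (chr2:160200273-160200522, minus strand), ITGAV (chr2:186589806-186590055, plus strand), ITGB5 (chr3:124887366-124887615, minus strand), ITGA6 (chr2:172427336-172427585, plus strand) and ITGA2 (chr5:52989102-52989351, plus strand), taking the entry with the most GC boxes where a gene had several.
ITGB6: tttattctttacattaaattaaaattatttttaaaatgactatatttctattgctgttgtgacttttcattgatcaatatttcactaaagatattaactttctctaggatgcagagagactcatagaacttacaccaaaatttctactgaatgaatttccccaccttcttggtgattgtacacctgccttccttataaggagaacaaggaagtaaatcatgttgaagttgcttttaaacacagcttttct
ITGAV: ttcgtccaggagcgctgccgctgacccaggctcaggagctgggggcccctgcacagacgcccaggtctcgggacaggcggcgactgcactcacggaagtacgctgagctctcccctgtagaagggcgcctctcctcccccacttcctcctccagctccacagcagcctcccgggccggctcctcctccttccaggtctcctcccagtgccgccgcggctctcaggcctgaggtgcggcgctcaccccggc
ITGB5: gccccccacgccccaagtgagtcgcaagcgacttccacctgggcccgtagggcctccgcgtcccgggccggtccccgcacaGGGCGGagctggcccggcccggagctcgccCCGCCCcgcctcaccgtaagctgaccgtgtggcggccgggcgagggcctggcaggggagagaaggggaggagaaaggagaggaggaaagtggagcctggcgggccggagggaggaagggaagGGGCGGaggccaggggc
ITGA6: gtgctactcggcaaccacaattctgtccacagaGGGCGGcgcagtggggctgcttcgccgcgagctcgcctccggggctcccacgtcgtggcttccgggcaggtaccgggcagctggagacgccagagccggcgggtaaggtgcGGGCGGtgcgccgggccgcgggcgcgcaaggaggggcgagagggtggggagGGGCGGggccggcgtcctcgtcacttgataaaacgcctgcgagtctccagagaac
ITGA2: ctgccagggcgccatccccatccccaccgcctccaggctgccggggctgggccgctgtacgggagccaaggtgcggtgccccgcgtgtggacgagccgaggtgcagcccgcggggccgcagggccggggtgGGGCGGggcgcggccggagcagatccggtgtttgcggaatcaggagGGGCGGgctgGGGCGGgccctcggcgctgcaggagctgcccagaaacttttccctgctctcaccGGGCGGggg
ITGB6, the subunit with the largest rise, had the most AT-rich of the 5 windows, with 30.0% GC and no GC box. ITGAV had 70.8% GC and no exact GC box, against 3 boxes in the windows of ITGB5 and ITGA6 and 4 in that of ITGA2. Over their full 300 bases, other entries had fewer boxes, 2 for each of ITGB5 and 1 for ITGA6. The ITGB6 window lies inside the gene as annotated in the deposited data (end 160271888, minus strand). Which starts these cells use is not known from these data. ITGB5 fell and ITGA2 and ITGA6 rose in EBC-1, so genes with GC boxes in these windows were found in both directions. A match of letters is a description and not a binding site, and a window without one says only that these letters are not in it.

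SYK knockdown shifted integrin expression in EBC-1 in both directions. Of the 9 members tested, 7 were called at a limma adjusted p under 0.05, where 44.7% of all 12430 genes were called. Upward, 5 of the 9 members were called (23.1% of all genes), namely ITGB6, ITGA6, ITGB1, ITGA2 and ITGB4, and downward 2 of the 9 (21.6% of all genes), ITGB5 and ITGA3. The median log2 fold change over the 9 members was 0.42, against 0.0090 over all genes. In 8 of the 9 the nc and shSYK libraries did not overlap, as in 56.9% of all genes. Apart from ITGB4, the members called upward had transcripts of low GC content (40.1 to 42.5%, and 38.2% for ITGB1), and the values with the GC trend removed are given with those on base composition.

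ITGB6, the epithelial partner of ITGAV that binds latent TGF-beta, had the largest change. Its FPKM was 5.16, 5.88 and 5.001 in the nc libraries of EBC-1 and 13.5, 13.2 and 16.2 in the shSYK libraries. All shSYK libraries lay above all nc libraries, by 2.68-fold in the means (log2 fold change 1.27, SE 0.098, limma adjusted p = 0.000170), and it was the only member to pass a change of at least 2-fold as well. ITGB5, another partner of ITGAV, moved the opposite way. It had 54.9, 47.7 and 59.3 FPKM in nc and 35.9, 38.1 and 30.6 in shSYK libraries, so all shSYK libraries lay below. The fall was to 64.6% of the nc mean (log2 fold change -0.62, SE 0.11, limma adjusted p = 0.00379). ITGAV, the alpha subunit both share, had 16.2, 21.2 and 15.3 FPKM in nc libraries, beside 20.4, 18.4 and 20.4 in shSYK libraries. These groups overlapped (log2 fold change 0.17, SE 0.12, limma adjusted p = 0.277).

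Among the laminin receptor subunits of EBC-1, ITGA3 fell while ITGA6 and its partner ITGB4 rose. ITGA3 had 191, 165 and 197 FPKM in nc and 145, 142 and 125 in shSYK libraries. It fell to 74.6% of the nc mean without overlap (log2 fold change -0.42, SE 0.091, limma adjusted p = 0.00857). ITGA6 had 18.7, 19.6 and 17.1 FPKM in nc and 26.3, 26.6 and 28.7 in shSYK libraries. It was higher in all shSYK libraries, 1.48-fold in the means (log2 fold change 0.54, SE 0.075, limma adjusted p = 0.00153). ITGB4 had 37.6, 32.7 and 38.8 FPKM in nc and 54.2, 50.4 and 42.6 in shSYK libraries, 1.35-fold higher without overlap (log2 fold change 0.42, SE 0.11, limma adjusted p = 0.0161). Its call was lost without shSYK replicate 1 (adjusted p = 0.0549), without shSYK replicate 2 (0.0511) and with no filter on low genes (0.0536).

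ITGB1, the shared beta subunit, had 75.0, 89.3 and 71.9 FPKM in the nc libraries of EBC-1 and 103, 108 and 109 in the shSYK libraries. It rose 1.36-fold, with all shSYK libraries above nc (log2 fold change 0.44, SE 0.089, limma adjusted p = 0.00661). The collagen receptor subunit ITGA2 had 31.8, 38.3 and 31.0 FPKM in nc and 43.5, 43.9 and 49.4 in shSYK libraries, a rise of the same size (1.35-fold, log2 fold change 0.43, SE 0.098, limma adjusted p = 0.0104). ITGA5 was low in this line, with 2.22, 1.95 and 2.86 FPKM in nc and 2.90, 2.91 and 2.89 in shSYK libraries, or 187 to 359 reads per library. Its groups did not overlap by a narrow margin, and it was not called (log2 fold change 0.23, SE 0.11, limma adjusted p = 0.127). The shSYK libraries of EBC-1 had smaller FPKM sums over all genes than the nc libraries, 247177 to 253541 against 267243 to 280477. After scaling each library to an equal sum (TPM), the median of all genes moved to 0.12, 4019 genes were called as higher and 1901 as lower in place of 2876 and 2686 (3874 and 2271 with limma-voom on recovered reads), and the members called became 6 higher and 2 lower, ITGA5 being the addition.

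In HCC827, the subunits that rose were ITGAV, ITGA6, ITGA2 and ITGB1, and those that fell, by less, were ITGA5 and ITGA3. Of the 9 members tested, 6 were called, where 38% of all 11999 genes were. These were 4 upward (17.2% of all genes) and 2 downward (20.7% of all genes). The median log2 fold change of the 9 members was 0.028, against -0.0053 over all genes. The libraries of the same 6 members did not overlap between nc and shSYK, as in 52.3% of all genes. With TPM the split of all called genes turned from 2066 higher and 2488 lower to 2482 and 1905 (3022 and 2171 with limma-voom), and none of the 2 falls among the members kept its call.

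ITGAV was the member with the largest change in HCC827. It had 14.0, 15.7 and 14.1 FPKM in nc and 24.2, 22.9 and 23.4 in shSYK libraries. Every shSYK library was above every nc library, 1.61-fold in the means (log2 fold change 0.65, SE 0.062, limma adjusted p = 0.000445). Its partners ITGB5 and ITGB6 were not called. ITGB5 had 17.4, 15.4 and 15.6 FPKM in nc and 19.0, 15.9 and 14.7 in shSYK libraries, overlapping (log2 fold change 0.03, SE 0.097, limma adjusted p = 0.846). ITGB6 had 7.94, 8.10 and 8.80 FPKM in nc and 8.12, 6.997 and 8.21 in shSYK libraries, also overlapping (log2 fold change -0.08, SE 0.075, limma adjusted p = 0.420).

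The laminin receptors of HCC827 showed ITGA6 higher and ITGA3 slightly lower. ITGA6 had 20.46, 19.4 and 19.9 FPKM in nc and 28.8, 29.0 and 25.6 in shSYK libraries, a 1.40-fold rise without overlap (log2 fold change 0.46, SE 0.063, limma adjusted p = 0.00172). ITGA3 had 162, 156 and 157 FPKM in nc and 149.5, 136 and 130.2 in shSYK libraries. It was 87.6% of the nc mean and just inside the threshold (log2 fold change -0.19, SE 0.064, limma adjusted p = 0.0481), and the call was lost in 13 of 17 alternatives (adjusted p 0.0183 to 0.817). ITGB4, the partner of ITGA6, had 29.4, 29.4 and 25.9 FPKM in nc and 31.1, 25.5 and 24.3 in shSYK libraries, which overlapped (log2 fold change -0.07, SE 0.099, limma adjusted p = 0.601).

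ITGB1 had 145, 154 and 144 FPKM in HCC827 nc libraries and 175, 175 and 170.3 in shSYK libraries, 1.18-fold higher without overlap (log2 fold change 0.23, SE 0.052, limma adjusted p = 0.0116). ITGA2 had 16.7, 18.02 and 16.6 FPKM in nc and 20.3, 22.4 and 20.1 in shSYK libraries, 1.22-fold higher (log2 fold change 0.28, SE 0.064, limma adjusted p = 0.0129). Both rises were small next to that of ITGAV. The call of ITGB1 was lost in 3 of 17 alternatives (adjusted p = 0.288 with GC and length trends removed, 0.138 in the limma fit of all 18 libraries and 0.0530 without nc replicate 1) and that of ITGA2 in 2 of 17. ITGA5 had 21.3, 21.2 and 23.8 FPKM in nc and 19.6, 18.9 and 17.9 in shSYK libraries, or 85.2% of the nc mean (log2 fold change -0.22, SE 0.065, limma adjusted p = 0.0326). That call was lost in 10 of 17 alternatives.

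In PC-9, none of the 9 members was called by limma, in a line where 2.09% of all 12089 genes were called, with 0.678% upward and 1.41% in the other direction. Without adjustment, at p under 0.05, the count was 3 of 9 (15.6% of all genes): ITGB6, ITGB1 and ITGAV. In 2 of the 9, ITGB6 and ITGB1, the libraries did not overlap (23.7% of all genes). The median log2 fold change of the 9 members was 0.14, against 0.0088 over all genes.

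ITGB6 in PC-9 had 8.82, 14.2 and 12.7 FPKM in nc and 17.3, 18.2 and 17.3 in shSYK libraries. All shSYK libraries were above nc, 1.48-fold in the means, but it did not pass the threshold (log2 fold change 0.55, SE 0.16, limma adjusted p = 0.160; 0.36 and 0.0593 without nc replicate 1). ITGB1 had 56.6, 84.5 and 71.4 FPKM in nc and 89.8, 103 and 94.1 in shSYK libraries (log2 fold change 0.45, SE 0.16, limma adjusted p = 0.236). Without nc replicate 1, its log2 fold change was 0.30 (adjusted p = 0.169). ITGAV had 2.39, 6.03 and 4.19 FPKM in nc and 7.31, 6.92 and 5.80 in shSYK libraries, where the lowest shSYK library lay below the highest nc library (log2 fold change 0.62, SE 0.25, limma adjusted p = 0.285). Leaving out nc replicate 1, which held the lowest ITGAV and ITGB6 of the nc libraries and the highest ITGA3 and ITGB4, brought the log2 fold change of ITGAV to 0.34 and turned that of ITGA3 from -0.06 to 0.11.

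The other 6 tested members overlapped between nc and shSYK in PC-9, with log2 fold changes from -0.22 (ITGB4, SE 0.14) to 0.16 (ITGA5, SE 0.15). ITGB4, the most abundant of them, had 157, 114 and 123 FPKM in nc and 105, 114 and 115 in shSYK libraries (limma adjusted p = 0.530). ITGA6, its partner, had 40.9, 57.2 and 51.7 FPKM in nc and 51.4, 57.0 and 55.3 in shSYK libraries (limma adjusted p = 0.721). Without nc replicate 1 the 6 log2 fold changes ran from -0.37 (ITGA2) to 0.31 (ITGA5), with -0.085 for ITGB4 and 0.0044 for ITGA6, and none of the 9 members was called, where 5.16% of all genes were. When the spread was estimated over all 18 libraries, 3 members were called in PC-9, ITGAV, ITGB1 and ITGB6, all upward, and 1513 genes in all in place of 253.

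**Figure D2:**
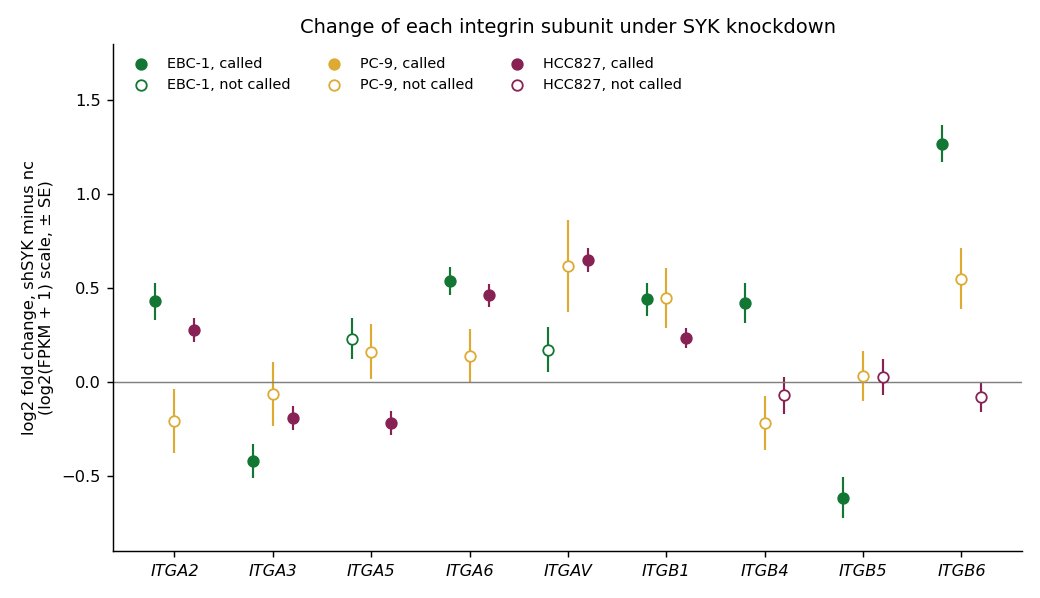
Log2 fold change (shSYK minus nc, on the log2(FPKM + 1) scale) of the 9 tested integrin subunits in EBC-1 (green), PC-9 (yellow) and HCC827 (purple), with bars of 1 SE from limma. Filled points were called at an adjusted p under 0.05, 7 in EBC-1, none in PC-9 and 6 in HCC827.

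Whether a response differed between cell lines was tested as the difference of the shSYK minus nc contrasts in a limma fit of all 18 libraries. Between EBC-1 and PC-9, 4 of the 9 members differed (19.8% of all 10627 genes). These were ITGB6 (difference 0.72, SE 0.18, adjusted p = 0.0111), ITGA2 (0.64, SE 0.18, adjusted p = 0.0227), ITGB4 (0.64, SE 0.17, adjusted p = 0.0179) and ITGB5 (-0.65, SE 0.17, adjusted p = 0.0138). Without PC-9 nc replicate 1 the same 4 and also ITGA3 (-0.53) and ITGA6 (0.53) were called, in a setting that called 39.3% of all genes. Between EBC-1 and HCC827, 2 of the 9 differed (20.8% of all 10691 genes), ITGB6 by 1.35 (SE 0.18, adjusted p = 8.86e-05) and ITGB5 by -0.64 (SE 0.17, adjusted p = 0.0136). Both comparisons use the EBC-1 libraries. With TPM, the genes called as more positive in EBC-1 went from 1026 to 1884 and those more negative from 1079 to 835 against PC-9, and from 1183 to 1623 and from 1043 to 951 against HCC827.

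Between PC-9 and HCC827, the pair of lines with an EGFR deletion, none of the 9 members was called by limma (5.87% of all 10594 genes), and 4 had an unadjusted p under 0.05 (19% of all genes), ITGB6, ITGA2, ITGA5 and ITGA6. ITGB6 came nearest, with a difference of 0.63 and an interval of 2 SE to either side from 0.27 to 0.99 (adjusted p = 0.0506). For ITGAV the difference was -0.03, with an interval from -0.56 to 0.50, which leaves room for differences of that size. Without PC-9 nc replicate 1, 4 members were called here, where 19.3% of all genes were: ITGB6 (0.45), ITGA5 (0.53), ITGA2 (-0.65) and ITGA6 (-0.46).

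Shares within a library do not depend on how the library was scaled, and here they are shares of transcript FPKM, not of receptors on the cell. They are not corrected for GC content, which was 60.9% for ITGA3, 54.6% for ITGB5 and 38.3 to 42.5% for ITGA2, ITGA6, ITGAV and ITGB6. With the GC and length trends removed, the log2 fold change of ITGA3 was -0.15 in EBC-1 and -0.016 in HCC827. In EBC-1, that of ITGB6 was then 0.997 and that of ITGB5 -0.45. The part of GC content in the shares was not tested. ITGA3 made up 73.5%, 67.1% and 74.9% of the summed FPKM of the 5 alpha subunits in the nc libraries of EBC-1 and 60.9%, 60.7% and 55.3% in the shSYK libraries, a fall of the mean from 71.8% to 59.0%. ITGA6 rose from 7.21% to 11.7% and ITGA2 from 13.2% to 19.6% of the alpha FPKM, both without overlap. In HCC827 the share of ITGA3 was 69.0%, 67.8% and 67.8% in nc and 61.7%, 59.3% and 59.9% in shSYK libraries, while ITGA6 went from 8.59% to 12.1% and ITGAV from 6.31% to 10.2%. Here too the groups did not overlap. In PC-9 the nc shares of ITGA3 ran from 51.5% to 68.6% and enclosed the shSYK shares of 54.0% to 58.6%.

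The largest shift in these shares lay among ITGB5, ITGB6 and ITGB8 in EBC-1. Among the members, these are the partners of ITGAV other than ITGB1. ITGB3, from the list of other integrin subunits, was not part of the sum (mean 0.474 FPKM in nc and 0.122 in shSYK libraries of EBC-1). ITGB6 made up 8.53%, 10.9% and 7.74% of the summed FPKM of ITGB5, ITGB6 and ITGB8 in nc libraries and 27.1%, 25.5% and 34.4% in shSYK libraries. The share of ITGB5 fell from 90.4% ± 1.81 (SD, n = 3) to 70.2% ± 4.71. In HCC827 the ITGB6 share was 33.7% ± 2.42 in nc and 31.8% ± 3.22 in shSYK cells, and in PC-9 19.2% ± 5.72 and 25.4% ± 1.25, with overlap in both. Of 24 shares, 11 did not overlap between nc and shSYK. Each of these had p = 0.1 by exact permutation (two-sided), which is the lowest value possible with 3 and 3 libraries. After Benjamini-Hochberg adjustment over the 24 it was 0.218. The shares of a set have a fixed total in each library, so a rise in any share lowers others. The 11 are therefore not independent of each other. A background for shares was not computed. For the FPKM of single genes, the groups were apart in 56.9% (EBC-1), 23.7% (PC-9) and 52.3% (HCC827) of all genes.

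**Figure D3:**
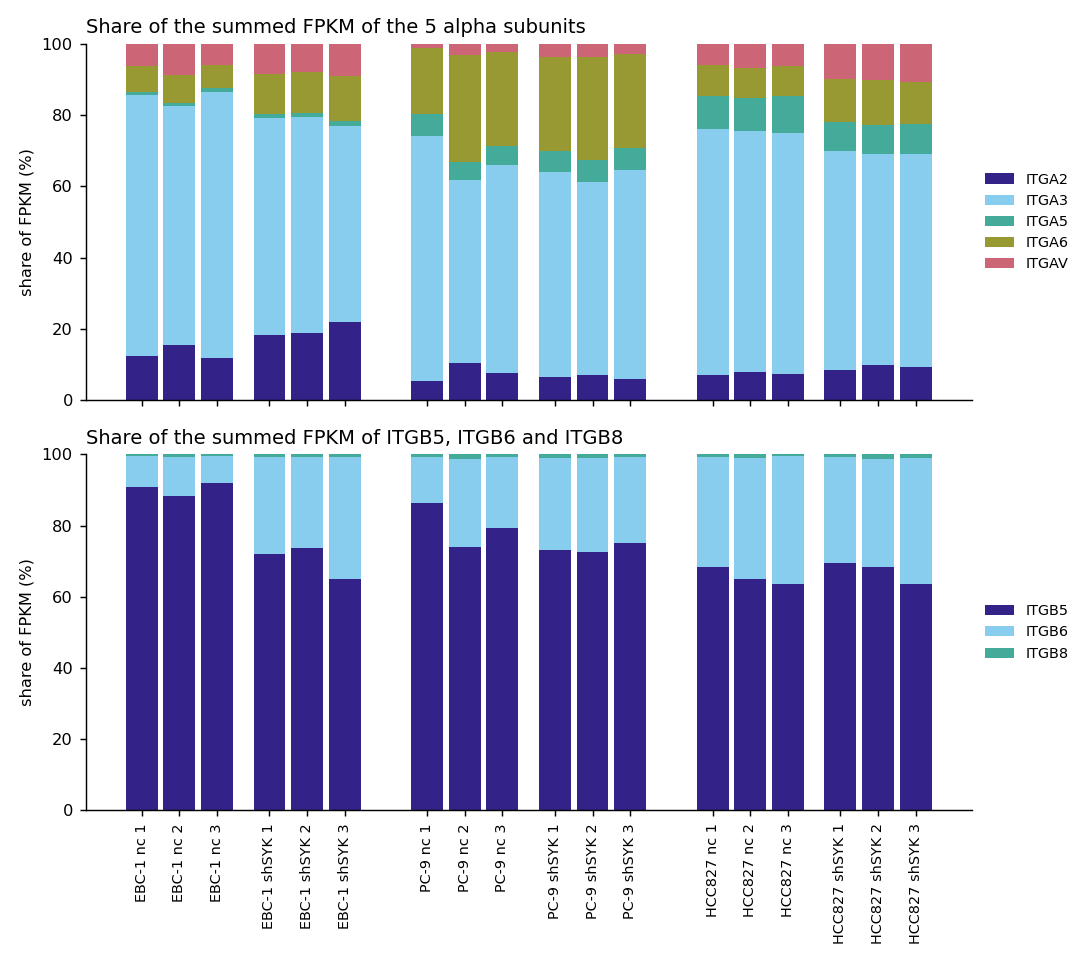
Share of each alpha subunit in the summed FPKM of the 5 alpha subunits (top) and of ITGB5, ITGB6 and ITGB8 in their own sum (bottom), in percent, for each of the 18 libraries. In EBC-1 the ITGB6 share rises from 7.74 to 10.9% in nc to 25.5 to 34.4% in shSYK libraries, and the ITGA3 share is lower in shSYK libraries of EBC-1 and HCC827.

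The fold changes of genes in general followed the GC content of their transcripts, and the members spread over a wide range of it. The median log2 fold change of the genes with the lowest GC content, when genes were split into 3 equal sets by it, was 0.29 for EBC-1, 0.084 for PC-9 and 0.14 for HCC827. For the set with the highest GC content it was -0.22, -0.065 and -0.17. ITGAV, ITGB1, ITGB8, ITGA2, ITGB6 and ITGA6 had 38.2 to 42.5% GC, whereas ITGB5 (54.6%), ITGA5 (58.0%), ITGA3 (60.9%) and ITGB4 (63.6%) had more. An alternative chosen after seeing the data removed the trends of log2 FPKM on GC content and gene length within each library. In EBC-1 it left ITGB6 (0.997), ITGB4 (0.72), ITGA6 (0.35), ITGA2 (0.16), ITGB5 (-0.45) and ITGA3 (-0.15) called, added ITGA5 (0.48), and ended the call of ITGB1 (0.11, limma adjusted p = 0.0744), with 43.3% of all genes called. In HCC827 it left 2 of the 6 calls, ITGAV (0.48, limma adjusted p = 0.000964) and ITGA6 (0.33, limma adjusted p = 0.00628), while ITGA2 (0.12), ITGB1 (0.07), ITGA3 (-0.02) and ITGA5 (-0.06) were no longer called, with 30.4% of all genes called. In PC-9 it gave 4 calls, ITGAV (0.52), ITGB6 (0.46), ITGB1 (0.33) and ITGA2 (-0.29), with 9.77% of all genes called.

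**Figure D4:**
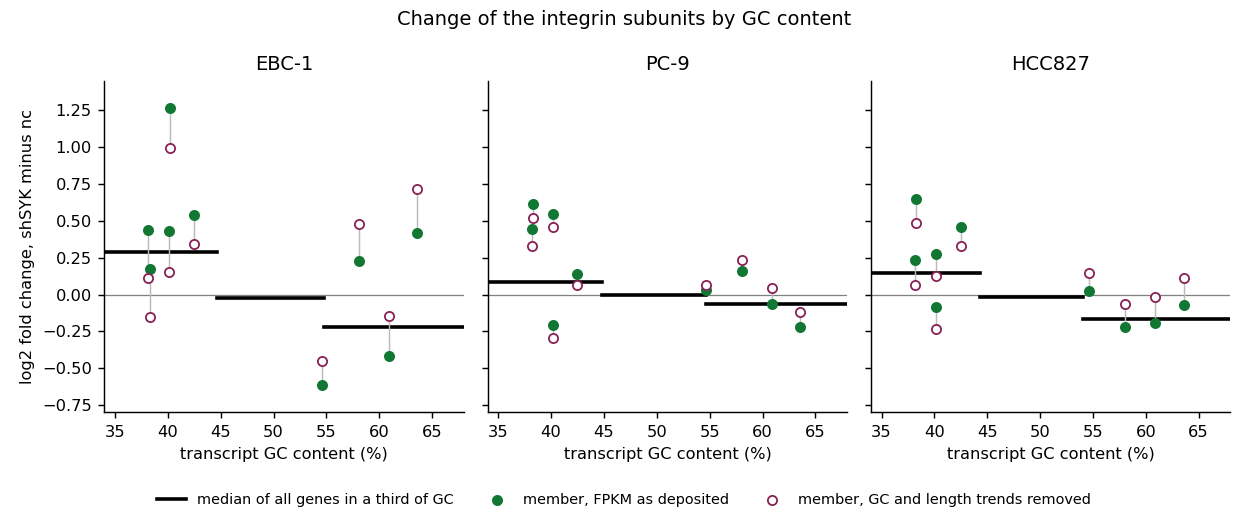
Log2 fold change (shSYK minus nc) of the 9 tested integrin subunits against the GC content of their longest transcript in percent, in 3 cell lines. Filled points use the FPKM as deposited, open points the values after removal of the GC and length trends, and black lines are medians of all genes in 3 equal sets of genes by GC content, 0.29 to -0.22 in EBC-1, drawn within the plotted range. In HCC827 4 of the 6 called members come to lie between -0.06 and 0.12.

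Other genes of the integrin system were taken from 5 lists. Of 16 other integrin subunits, 2 or 3 per cell line passed the minimum for testing. None of them was called upward in any line. ITGA7, a laminin receptor subunit best known from muscle, had 2.73, 2.40 and 2.73 FPKM in EBC-1 nc and 0.4997, 0.483 and 0.358 in shSYK libraries, a fall without overlap (limma adjusted p = 0.000183, log2 fold change -1.32). ITGB2, the leukocyte beta subunit, fell in EBC-1 from 2.47 ± 0.337 (SD, n = 3) to 1.08 ± 0.0586 FPKM and in PC-9 from 4.81 ± 0.890 to 1.58 ± 0.118 (limma adjusted p = 0.00171 and 0.0117). In PC-9 its call was lost with no filter and without nc replicate 3 or any 1 of the shSYK libraries (highest adjusted p 0.0911). ITGB2 was also 1 of 5 leukocyte markers and held most of their summed FPKM, which was 2.55 to 3.19 in nc and 1.15 to 1.83 in shSYK libraries of EBC-1 and 4.65 to 6.005 and 1.99 to 2.53 in those of PC-9. With ITGB2 the PC-9 list count was 1 of 3 (2.09% of all genes). In HCC827, 0 of 2 were called by limma (38% of all genes), also 0 at an unadjusted p under 0.05.

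Of the 24 activators and adhesion adaptors, which tie integrin tails to actin, 12 of 19 tested were called in EBC-1, 6 in each direction. Of all genes in EBC-1, 44.7% were called, 23.1% upward and 21.6% downward. TNS4, a tensin that binds beta tails, rose from 1.69 to 3.997 FPKM (log2 fold change 0.90), and CRK, an adaptor, from 15.2 to 23.5 (0.60). FLNA, an actin crosslinker, fell from 603 to 400.8 FPKM (-0.59), and TGFB1I1, a paxillin relative, from 2.75 to 1.63 (-0.51). HCC827 had 6 of 17 up and 3 down (17.2% and 20.7% of all genes). The largest rises were of FERMT2, a kindlin that activates integrins, from 4.64 to 8.32 FPKM (0.73), and of ACTN1, an alpha-actinin, from 31.7 to 46.8 (0.54). TLN1, the talin that activates integrins from inside, fell in HCC827 from 20.9 to 15.1 FPKM (-0.45), and ACTN4 from 232 to 184 (-0.34). Some of these calls were shared by both lines. TLN1 (-0.45) and ACTN4 (-0.30) were also called downward and ACTN1 (0.31) upward in EBC-1, and CRK (0.31) upward in HCC827. FERMT2 was not called in EBC-1 (0.0089). The median log2 fold change of this list was 0.0089 in EBC-1 and -0.022 in HCC827. In PC-9, 0 of 18 were called by limma (2.09% of all genes), with 3 at an unadjusted p under 0.05 (15.6% of all genes).

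Among 10 kinases and inhibitors at adhesions, SRC and PTK2B fell in both EBC-1 and HCC827. The tyrosine kinase SRC went from 9.97 ± 1.43 (SD, n = 3) to 4.12 ± 0.408 FPKM in EBC-1 (log2 fold change -1.09, limma adjusted p = 0.000500) and from 30.8 ± 2.29 to 20.8 ± 0.494 in HCC827 (-0.54, limma adjusted p = 0.00104). PTK2B, a relative of focal adhesion kinase, had a log2 fold change of -0.74 in EBC-1 and -0.82 in HCC827. Of the kinases that rose, LYN went from 12.9 to 20.3 FPKM and PTK2, focal adhesion kinase itself, from 11.6 to 14.6 in EBC-1, and FYN from 0.968 to 2.23 in HCC827, where ITGB1BP1, an inhibitor of ITGB1 activation, rose from 11.1 to 14.2 FPKM. Also called upward were PTK2 in HCC827 (log2 fold change 0.21) and ITGB1BP1 in EBC-1 (0.27). The list had 4 up and 2 down of 8 tested in EBC-1 (23.1% and 21.6% of all genes) and 3 up and 4 down of 9 in HCC827 (17.2% and 20.7%). In PC-9 it had 0 of 10 by limma (2.09% of all genes), with 3 at an unadjusted p under 0.05 (15.6%).

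Of the 8 hemidesmosome and tetraspanin partners of ITGA6, ITGB4 and ITGA3, 2 of 8 tested were called in EBC-1, where 44.7% of all genes were. DST, the dystonin gene whose epithelial product binds ITGB4, rose from 3.83, 6.40 and 3.77 to 10.3, 9.29 and 11.7 FPKM, and the tetraspanin CD82 fell from 68.8 to 45.5. In HCC827, 4 of 7 were called, where 38% of all genes were. TSPAN4 was called upward (10.8 to 13.2 FPKM) and 3 downward, among them COL17A1, a hemidesmosome collagen (20.2 to 15.7), and CD81 (20.7 to 16.5). PC-9 had 0 of 7 called by limma (2.09% of all genes) and 1 at an unadjusted p under 0.05 (15.6% of all genes).

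The ligands include the matrix proteins that these receptors bind. In EBC-1, 5 of 16 tested were called upward and 7 downward (23.1% and 21.6% of all genes). In HCC827, 6 of 17 were called upward and 4 downward (17.2% and 20.7%), and in PC-9 only TGFB2 of 13 (2.09%). SPP1, the osteopontin gene, rose in EBC-1 from 3.56, 3.27 and 2.48 to 6.28, 7.26 and 8.27 FPKM and fell in HCC827 from 6.08, 5.83 and 3.96 to 0.906, 0.810 and 0.671. TNC, the tenascin that several ITGAV receptors and ITGA2 bind, followed the same split, from 31.1 to 60.5 FPKM in EBC-1 and from 107 to 69.4 in HCC827. The difference between the lines was 2.80 on the log2 scale for SPP1 (SE 0.19, limma adjusted p = 1.49e-07) and 1.57 for TNC (SE 0.12, limma adjusted p = 4.88e-07), a test run after the opposite calls had been seen. TGFB2, a TGF-beta gene in this list whose product is kept latent outside the cell, rose in HCC827 from 3.26 to 8.84 FPKM. In PC-9 it rose from 4.26 to 6.75 FPKM, with a limma adjusted p of 0.0488. The count of ligands called in PC-9 moved between 0 and 5 over the alternatives. Whether integrins bind the latent product of TGFB2 was not examined here. EDIL3, a ligand of ITGAV receptors, rose in HCC827 from 7.49 to 14.6 FPKM. CYR61 and THBS1, matrix proteins that ITGAV receptors bind, fell in EBC-1 from 66.0 to 35.8 and from 43.7 to 25.2 FPKM.

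**Figure D5:**
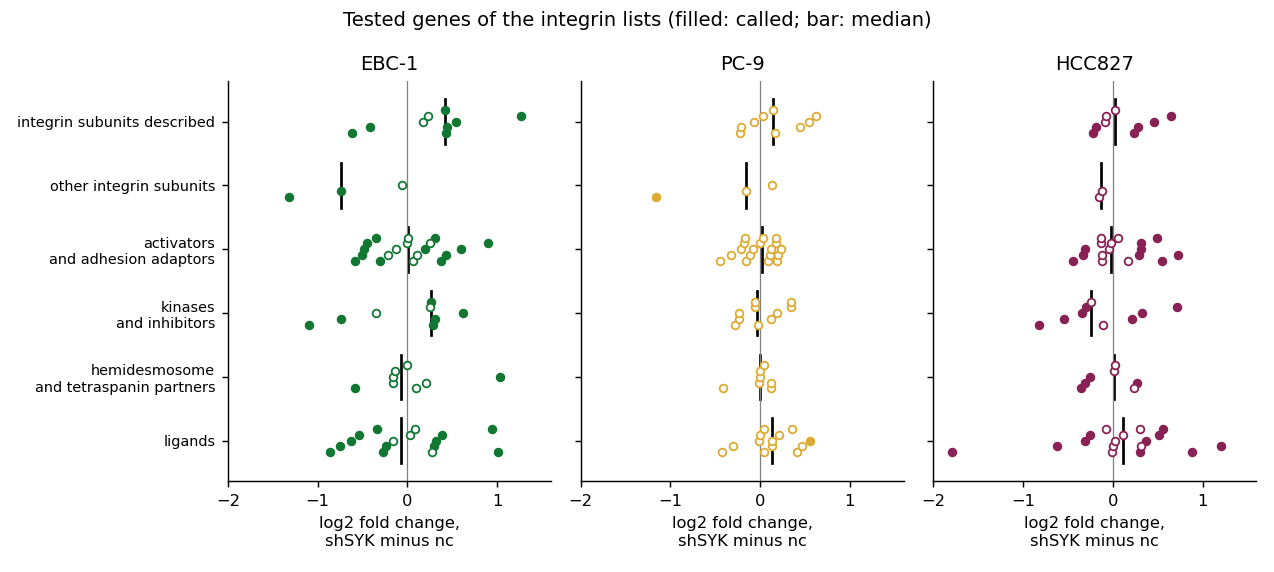
Log2 fold change (shSYK minus nc) of all tested genes of the members and of the 5 integrin lists in EBC-1, PC-9 and HCC827. Each point is a gene, filled where the limma adjusted p was under 0.05, vertical bars are list medians, and points are spread vertically for sight only. Calls lie on both sides of 0 in EBC-1 and HCC827, and in PC-9 2 genes of the lists were called.

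Across the 18 libraries, after the mean of each cell line was taken out, some members rose and fell together and others went against them, while ITGB4 and ITGA5 followed neither closely. ITGB4 had a Pearson r of 0.118 with ITGA2, 0.068 with ITGA3 and -0.080 with ITGB1, and ITGA5 had -0.029 with ITGB1 and 0.255 with ITGA3. ITGB4 and ITGA5 had 0.554 with each other, and with ITGAV they had -0.419 and -0.416. ITGA5 had -0.374 with ITGA2 and 0.334 with ITGB6. ITGB1 had a Pearson r of 0.844 with ITGA6, 0.842 with ITGAV and 0.818 with ITGB6, while ITGA3 had 0.866 with ITGB5 and -0.878 with ITGA2. The genes most like ITGB1 among 10030 were ERO1A (0.983), FGD6 (0.971) and IPO7 (0.968), those most like ITGA6 were GNG12 (0.969), SEPTIN11 (0.963) and PRKAR1A (0.962), those most like ITGA2 were NCOA2 (0.964), PNISR (0.960) and ALCAM (0.959), and those most like ITGA3 were BTBD2 (0.977), NUBP2 (0.974) and NECTIN2 (0.973). These correlations describe libraries that share treatment, depth and the GC trend, and carry no test.

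The genes are spread over the genome, in coordinates of the deposited tables: ITGB6 (chromosome 2, 160099666 to 160271888), ITGA6 (chromosome 2, 172427354 to 172506282) and ITGAV (chromosome 2, 186590065 to 186680901) share a chromosome arm, ITGA3 (chromosome 17, 50055968 to 50090481) and ITGB4 (chromosome 17, 75721328 to 75757818) another, and ITGB5 lies on chromosome 3 (124761948 to 124901418). ITGB4 overlaps GALK1 on the opposite strand (10.3 to 21.7 FPKM, 336 to 863 reads), and ITGB1 overlaps a long non-coding RNA of up to 127 reads. ITGB8, with only 17 to 142 reads itself, overlaps an antisense RNA of 2 to 77 reads. Whether reads were counted by strand is not given in the sources used here, so reads of such pairs cannot be told apart. ITGB4 held 1439 to 9729 reads per library and ITGB1 2814 to 11182.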

How the data were processed

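RNA was extracted with TRIzol from nc and shSYK cells of EBC-1, PC-9 and HCC827 and sequenced by Illumina, with 3 libraries per group. The submitters' processing notes name CASAVA and HISAT2 and the builds GRCh37, GRCh38, hg19 and hg38, the study's methods name hg38, and the counting program and annotation release are not given in the sources used here. The authors deposited FPKM values for 58302 genes in a table per cell line, made from reads, gene length and a denominator per library. Within each library the product of FPKM and length was a whole number of steps of the same size for 100% of values, which gave the reads back. They served for depths, a floor of 3 reads and 1 alternative. Read numbers cover counting error only.

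Tests used limma 3.58.1 in R 4.3.3 on log2(FPKM + 1) with a variance trend, within a cell line, for genes with a mean of at least 1 FPKM over its 6 libraries, and called genes at a Benjamini-Hochberg adjusted p under 0.05 over all genes tested. Fold changes on that scale understate the change of low genes. Responses were compared between lines in a fit of all 18 libraries. Shares used exact two-sided permutation tests. The fits were also run on simulated counts, which held no outlier library. No outcome is given here, so that run does not bear on the results. Python 3.11.15, numpy 2.4.6, pandas 2.3.3, scipy 1.17.1 and matplotlib 3.10.9 were used. GC content came from the longest GENCODE transcript.

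The members and the gene lists were chosen with earlier results of these data known. Named genes are the members, SYK, the 2 largest rises and 2 largest falls among called genes of each list and line, and the 3 genes most correlated with members called in at least 2 lines. The settings varied were the pseudocount (0.1), the filter (none, or 5 FPKM), TPM scaling, median of ratios, quantile normalization, no variance trend, a replicate block, limma-voom on recovered reads, other sets of libraries, each library left out, a 2-fold minimum, and, chosen after seeing the data, removal of GC and length trends (lowess span 0.3).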

Additional observations from a re-analysis of the deposited data

Results flagged for a closer look

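For 4 integrin subunits and 2 ligands, the response to SYK knockdown differed between cell lines by limma. Differences are the log2 fold change in a line minus that in another. Of all genes, 19.8% were called between EBC-1 and PC-9 and 20.8% between EBC-1 and HCC827. ITGB6 differed by 0.72 between EBC-1 and PC-9 and by 1.35 between EBC-1 and HCC827, and stayed called in 23 of 23 alternatives of each. ITGB5 differed by -0.65 between EBC-1 and PC-9 and by -0.64 between EBC-1 and HCC827, again called in 23 of 23 alternatives (highest adjusted p 0.0410 and 0.0400). ITGB4 differed by 0.64 between EBC-1 and PC-9 in 23 of 23 alternatives (highest adjusted p 0.0485). ITGA2 differed by 0.64 between EBC-1 and PC-9 and lost the call in 5 of 23 alternatives (highest adjusted p 0.0630), including those without EBC-1 nc replicate 1, EBC-1 nc replicate 3, EBC-1 shSYK replicate 3 or PC-9 shSYK replicate 3. SPP1 differed by 2.80 and TNC by 1.57 between EBC-1 and HCC827, and both stayed called in all alternatives in which they were tested (22 and 23). These 2 ligands were tested only after their opposite calls in the lines had been seen, so the outcome was largely fixed by that choice.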

How the results depend on the processing

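In EBC-1, the count of 7 members called ran from 6 to 8 over the other alternatives and was 1 with a change of at least 2-fold as well. Apart from the 2-fold minimum, the share of all genes called ran from 14.7% (no filter) to 52.3% (filter at 5 FPKM), against the 44.7% given above. In HCC827, the count of 6 (38% of all genes) became 2 with the GC and length trends removed (30.4%), 2 in a fit of all 18 libraries (28.3%) and 0 with the 2-fold minimum. Leaving out single libraries gave 3 to 6, the lowest without nc replicate 1 (29.4% of all genes). In PC-9, the count of 0 (2.09% of all genes) became 4 with the trends removed (9.77%) and 3 in a fit of all 18 libraries (12.5%). Leaving out single libraries gave 0 to 2, the highest without nc replicate 2 (ITGAV and ITGB6), where 4.14% of all genes were called. The members whose response differed between EBC-1 and PC-9 went from 4 (19.8% of all genes) to 7 with the trends removed (28.5%). Between EBC-1 and HCC827 they went from 2 (20.8% of all genes) to 5 with the trends removed (33.1%), 4 with TPM (24.1%), 4 with limma-voom (23.3%) and 5 in a fit of the 12 libraries of the pair (30%). Between PC-9 and HCC827 they went from 0 (5.87% of all genes) to 4 with the trends removed (13.2%), 1 with a filter at 5 FPKM (5.63%) and 1 with median of ratios (6.4%). Single libraries left out gave 0 to 4, with 4 without PC-9 nc replicate 1 (19.3%) and 1 without PC-9 nc replicate 2 (5.8%). The changes of direction were of members not called: with the trends removed, ITGA3 in PC-9 (0.047), ITGAV in EBC-1 (-0.16) and ITGB4 in HCC827 (0.11); ITGA3 in PC-9 without nc replicate 1 (0.11, the range over single libraries left out being -0.204 to 0.106); ITGB5 in HCC827 without nc replicate 2 (-0.0018) or shSYK replicate 1 (-0.072, range to 0.103); and ITGB5 in PC-9 with quantile normalization (-0.0029), without nc replicate 2 (-0.081, range to 0.133) or without shSYK replicate 3 (-0.010). The cause was not tested. Counts of all genes called in PC-9 ran from 8 without shSYK replicate 1 to 1513 in the fit of all 18 libraries. Without nc replicate 1 of PC-9 the count was 624.

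The deviations of same-numbered nc and shSYK libraries had correlations of -0.219 to 0.325, the highest for PC-9 replicate 2. The numbers were not taken as pairs. With a replicate block in limma the count of members stayed at 7 in EBC-1 (34.8% of all genes) and 0 in PC-9 (1.42%). It was 4 in HCC827 (34.3%), where ITGA3 and ITGA5 had adjusted p-values of 0.0674 and 0.0675. The members that differed numbered 4 between EBC-1 and PC-9 (15.8% of all genes), 2 between EBC-1 and HCC827 (16.7%) and 0 between PC-9 and HCC827 (3.5%).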

Other observations

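The summed FPKM of the 5 beta subunits was higher in EBC-1 shSYK libraries (207, 210.2 and 199) than in nc libraries (173, 176 and 175), also as a share of the FPKM of the library (0.0804 to 0.0829% against 0.0625 to 0.0658%). The sum of the 5 alpha subunits was lower in FPKM (238, 233 and 227 against 259, 246 and 263), but as a share of the FPKM of the library the groups overlapped (0.0918 to 0.0945% against 0.0922 to 0.0938%). In HCC827 the beta sum was 218 to 233 FPKM in shSYK and 194 to 207 in nc libraries, and 0.0653 to 0.0720% against 0.0548 to 0.0621% of the library, and the alpha sums overlapped at 217 to 242 and 230.5 to 234. In PC-9 the beta sums overlapped (256 to 280 FPKM in nc and 262 to 286 in shSYK libraries), as did the alpha sums (190 to 220 and 195 to 210). The ratio of ITGB4 to ITGA6, which pair in hemidesmosomes, was 2.73 ± 0.968 (SD, n = 3) in PC-9 nc and 2.04 ± 0.0394 in shSYK cells, with nc replicate 1 at 3.83. In EBC-1 the ratio was 1.99 ± 0.307 for nc and 1.81 ± 0.295 for shSYK libraries, which overlapped. The HCC827 ratio was 1.42 ± 0.110 for nc and 0.968 ± 0.1005 for shSYK libraries, without overlap. It is not corrected for GC content, which was 63.6% for ITGB4 and 42.5% for ITGA6. With the GC and length trends removed, their log2 fold changes in HCC827 were 0.11 and 0.33. These sums and ratios were computed after the single genes had been seen and were not tested, and no background was computed for them.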
